A study of Homo sapiens with 12 samples.

Results

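The keratin, claudin, cadherin, desmosomal cadherin, plakophilin and connexin genes on a whole human genome array were followed in MIA PaCa-2 cells exposed to a leaf extract. Members were chosen by name alone, as every feature whose only gene symbol in the platform annotation starts with KRT and a digit, CLDN, CDH and a digit, DSG, DSC and a digit, PKP, GJA or GJB. This gave 173 features of 116 genes, of 43376 features in the value table and 31332 features that carry 1 symbol. They were 60 keratin features of 50 genes, 29 claudin features of 22 genes, 45 cadherin features of 21 genes, 10 desmosomal cadherin features of 8 genes, 5 plakophilin features of 4 genes and 24 connexin features of 11 genes. The rule also took in genes that share only a name with the family, namely the claudin domain gene CLDND1, the antisense genes KRT10-AS1 and DSG2-AS1 and the keratin pseudogenes KRT17P5, KRT19P2 and KRT8P41.

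MIA PaCa-2 is an established human pancreatic carcinoma line. Cells were exposed for 24, 48 or 72 h to LE, an extract of *Achyranthes aspera* leaves, at 34 μg/mL in 2% methyl alcohol, and control cells received 2% methanol alone. RNA of LE-treated and control cells was labelled with different dyes and hybridised together, with 6 such arrays for the 24 h exposure, 4 for 48 h and 2 for 72 h. LE carried Cy-5 on 3, 2 and 1 of them and Cy-3 on the others. The methods name duplicate cultures and the labels give no culture for an array, so p-values here measure the spread between arrays, which may be technical, and the number of arrays limits the precision.

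Keratins pair as type I and type II chains into the intermediate filaments of epithelial cells, with KRT8, KRT18, KRT19 and KRT7 typical of simple epithelia such as the pancreatic duct. Classical cadherins hold neighbouring cells together at adherens junctions, desmogleins and desmocollins do so at desmosomes, and plakophilins tie these to the cytoskeleton. Claudins seal tight junctions, and connexins form the channels of gap junctions. Loss of E-cadherin, encoded by CDH1, and gain of vimentin are widely used signs of a carcinoma cell that has left the epithelial state, and MIA PaCa-2 is generally described as a line with little E-cadherin.

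The values were log2 ratios of the 2 channels of each array, left blank by the authors where a feature missed a quality criterion. The criteria covered brightness over background in each channel, saturated pixels, spot diameter, the fit of pixel ratios and opposite change at dye swap, and the file does not say which of them a blank feature missed. Every feature had values on all 12 arrays or on none. A blank thus means that a feature has no ratio in the value table, for a reason that is not given, and it does not show that the gene was silent. KRT14, VWF and GJD4, all blank in the deposited table, stand in the gene list of the study, so a blank is also not proof that a feature went unmeasured. A ratio gives no level, so levels of different genes were not compared.

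Most members were blank. Values were present for 29 of 173 member features (16.8%), against 13407 of 31159 other features with 1 symbol (43.0%). By gene the shares were 18 of 116 (15.5%) and 8810 of 18218 (48.4%). GJB2 and CDH1 alone account for 21 member features, and without both genes 19 of 152 features (12.5%) had values. The share was highest for plakophilins, with 3 of 5 features (60%), and for connexins, with 10 of 24 (41.7%), all 10 from GJB2. It was 6 of 29 (20.7%) for claudins, 6 of 60 (10%) for keratins, 4 of 45 (8.89%) for cadherins and 0 of 10 for desmosomal cadherins. These are counts with no test.

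**Figure D1:**
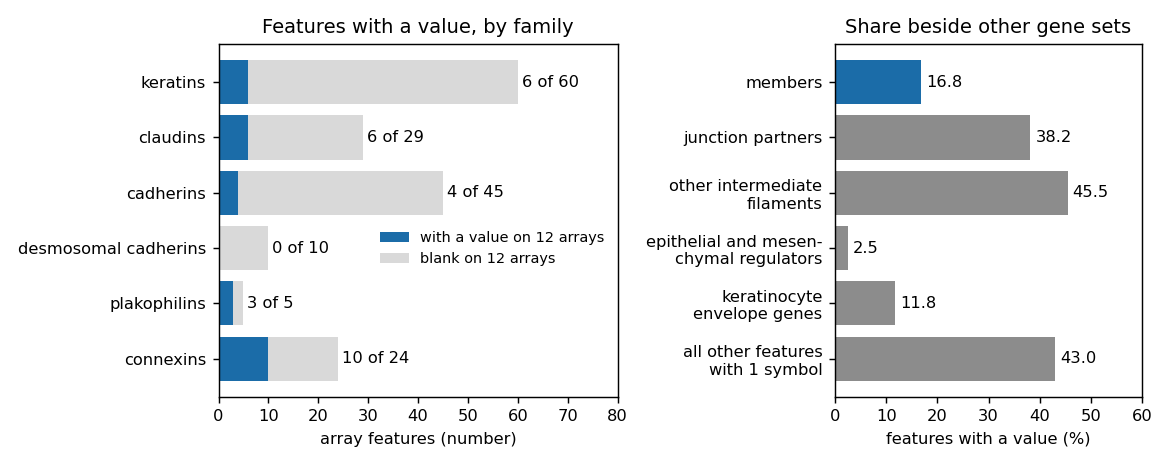
Left, number of array features of each family, with those that had a value on 12 arrays in blue and those blank on 12 arrays in grey. Right, percent of features with a value among the members, in 4 gene lists and among all other features with 1 symbol. Desmosomal cadherins had 0 of 10 features with a value, and members as a whole had 16.8% against 43.0% of the other features.

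Among keratins, the pair KRT8 and KRT18 and the simple-epithelium keratin KRT19 had values, each from 1 feature. KRT8 had 2 features in all and KRT18 had 4, so that other features of the same genes were blank. KRT7, a duct keratin, and KRT20, an intestinal keratin, were blank. In all, 3 of 5 genes of the simple-epithelium group were measured, on 3 of 9 features (33.3%). In the stratified-epithelium group it was 2 of 14 genes, on 2 of 16 features (12.5%). These were KRT3, known from the cornea, and KRT10, known from the upper epidermis. Over all features with 1 symbol, 42.9% of features and 48.2% of genes had values. KRT5 and KRT14, the pair of basal epidermal cells, were blank, and so were all 21 genes of hair and its root sheath. The study nevertheless lists KRT14 as lowered. The sixth measured feature belonged to KRT10-AS1, an antisense gene of KRT10. The sources do not state whether amplification and labelling kept the strand apart. Keratins have near-identical copies and pseudogenes, and the 3 pseudogenes among the members were blank.

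Among the tight junction genes, CLDN3, CLDN11, CLDN12, CLDN23 and CLDND1 had values. CLDN3 is a sealing claudin of many epithelia, and CLDN11 is best known from myelin and the testis. CLDN1, CLDN4 and CLDN7, common in epithelial carcinomas, and CLDN18, known from the stomach and from pancreatic carcinoma, were blank, as were 17 claudin genes in all. Of the cadherins, CDH6, CDH10, CDH22 and CDH26 were measured with 1 feature each. The cadherins CDH1 (E-cadherin, 10 features), CDH2 (N-cadherin, 1 feature) and CDH3 (P-cadherin, 1 feature) were blank throughout. CDH17, the intestinal cadherin, and CDH5, the endothelial one, were blank too. Features annotated to 1 gene could differ in state. Of 5 CDH6 features, the 1 with values is annotated through a cDNA clone, while both features of the RefSeq transcript and 2 of another clone were blank.

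At the desmosome, DSG1 to DSG4, DSC1 to DSC3 and DSG2-AS1 were blank. The plakophilins PKP1 and PKP3 were blank, whereas both features of PKP2 and the feature of PKP4, an armadillo protein also found at adherens junctions, had values. Among 11 connexin genes, GJB2 (connexin 26) was measured on 10 of 11 features and the 10 other genes were blank, including GJA1 (connexin 43) on 2 features and GJB1 (connexin 32) on 2. GJB2 stood alone among the connexins with values.

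Shares with values differed between groups of genes that work with the members. Outside the members, 43.0% of features with 1 symbol had values, and 48.4% of their genes. These lists were drawn up from general knowledge. Of 34 junction partner genes in the annotation 15 had values (29 of 76 features, 38.2%), among them the catenins CTNNA1, CTNNB1 and CTNND1, plakoglobin (JUP), vinculin (VCL), occludin (OCLN) and TJP1, while the desmoplakin gene DSP was blank on 2 features. Of 16 other intermediate filament genes 8 had values (10 of 22 features, 45.5%), with VIM (vimentin) and the lamin gene LMNA measured on all of their 2 features each. Only PANX1 had a value among 8 other connexins and pannexins, of which the blank GJD4 is in the gene list of the study. TGM1 and SPRR1A had values among 12 keratinocyte envelope genes (2 of 17 features, 11.8%). Of 19 regulators and readouts of the epithelial or mesenchymal state, FN1 (fibronectin) had a value on 1 of 14 features, and SNAI1, SNAI2, ZEB1, ZEB2, TWIST1, GRHL2, ESRP1 and EPCAM were blank, for 1 of 40 features in all (2.5%). These are mostly transcription factors, on both sides of the epithelial and mesenchymal divide.

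Of 7 epithelial markers of pancreatic carcinoma, KRT8, KRT18, KRT19 and MUC1 had values, and KRT7, EPCAM and CDH1 were blank. Markers of other cell types were checked in the same way. All 6 endothelial genes were blank, although VWF among them is in the gene list of the study. COL1A1 (10 of 10 features) and ACTA2 were measured among 8 fibroblast and stellate genes while COL1A2 was blank on 11 features. CD14 and ITGAM were measured among 5 leukocyte genes while PTPRC was blank on 11. The ratios give no summed level for these markers, and their part in the member values was not tested.

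Where many features covered a gene, they mostly had the same state, but a shared blank did not settle whether the gene was measured. VWF was blank on 11 of 11 features and is still in the gene list of the study. The paper counts replicated spots among its features, and whether features of the same gene are such spots was not tested. Of 244 genes with 8 or more features, 65 were blank on all of them and 154 were measured on more than 90%, leaving 25 between. CDH1 (0 of 10) and GJB2 (10 of 11) fell at opposite ends. With fewer features the picture was mixed. Of 31 member genes with 2 or more features, 21 were blank on all, PKP2 was measured on both, and 9 had features of each kind. CLDN3, CLDN12, CDH22, KRT8 and KRT18 each had measured and blank features annotated to the same transcript.

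Promoter sequences were set beside this pattern. RefSeq promoters on GRCh38.p14, each 300 bases long with 250 before and 50 after the transcript start, were matched by symbol to 73 of 116 member genes, 11 with values and 62 blank. They are shown for GJB2 and CLDN3, which had values and a G and C rich start, for KRT10, which had values and a TATA motif, and for GJA1, the best known blank connexin. Letters in capitals mark the GC box, spelled GGGCGG, and the TATA box, which was searched as TATAAA, on either strand, with overlapping matches running together. The spans are chr13:20192889-20193188 (minus strand) for GJB2, chr7:73770221-73770520 (minus strand) for CLDN3, chr17:40822565-40822864 (minus strand) for KRT10 and chr6:121435396-121435695 (plus strand) for GJA1.
GJB2: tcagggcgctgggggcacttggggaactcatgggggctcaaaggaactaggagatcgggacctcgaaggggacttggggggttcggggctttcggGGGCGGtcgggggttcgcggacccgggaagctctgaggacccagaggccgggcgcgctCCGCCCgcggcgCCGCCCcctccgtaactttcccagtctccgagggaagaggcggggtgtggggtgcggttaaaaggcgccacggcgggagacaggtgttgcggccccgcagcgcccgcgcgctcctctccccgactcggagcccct
CLDN3: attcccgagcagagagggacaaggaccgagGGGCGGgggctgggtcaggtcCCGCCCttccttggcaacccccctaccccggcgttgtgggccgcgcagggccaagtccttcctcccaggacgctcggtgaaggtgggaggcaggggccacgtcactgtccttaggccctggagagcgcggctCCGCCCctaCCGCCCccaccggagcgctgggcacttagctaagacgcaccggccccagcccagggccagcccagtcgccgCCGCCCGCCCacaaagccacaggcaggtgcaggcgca
KRT10: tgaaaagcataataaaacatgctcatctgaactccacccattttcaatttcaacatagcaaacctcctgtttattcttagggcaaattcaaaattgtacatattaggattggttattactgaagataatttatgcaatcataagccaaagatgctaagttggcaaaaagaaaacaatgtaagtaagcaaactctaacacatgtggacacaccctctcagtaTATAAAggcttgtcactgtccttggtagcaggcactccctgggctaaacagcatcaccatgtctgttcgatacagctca
GJA1: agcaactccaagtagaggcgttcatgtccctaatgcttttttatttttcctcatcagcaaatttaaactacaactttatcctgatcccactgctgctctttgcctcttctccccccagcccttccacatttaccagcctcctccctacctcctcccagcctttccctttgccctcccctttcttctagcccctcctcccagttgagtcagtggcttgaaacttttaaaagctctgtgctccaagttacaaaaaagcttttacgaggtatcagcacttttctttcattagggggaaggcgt

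The GC box occurred 3 times in the GJB2 promoter and 6 times in that of CLDN3, and the TATA motif was found in neither. GJA1 held none of these motifs. KRT10 had the TATA motif and no GC box. Among members with values 5 of 11 promoters held a GC box (45.5%), against 19 of 62 among blank members (30.6%) and 44.6% of all 27305 promoters. TATAAA was found in 2 of 11 (18.2%) and 18 of 62 (29.0%), against 12% of all promoters. The E-box CAGGTG, searched on both strands, was in 2 of 11 (18.2%) and 14 of 62 (22.6%), against 20.6%. All genes of the platform held a GC box in 70.8% with values and 50.1% blank. For TATAAA these shares were 5.83% and 11.7%, and for CAGGTG 17.6% and 21.4%. Both member sets thus held the GC box less often, and TATAAA more often, than platform genes of the same state. The median ratio of observed to expected CpG was 0.65 in members with values and 0.24 in blank members. The same ordering held for all genes of the platform, at 0.85 with values and 0.64 blank. Keratins of the stratified and hair groups make up much of the blank set, with low values such as 0.13 for KRT31. Measured keratins were low too, at 0.064 for KRT3, 0.096 for KRT10 and 0.11 for KRT8, while the antisense gene KRT10-AS1 had 1.27. Whether the mix of families bears on the medians was not tested. A match is a description of the letters and says nothing of a factor.

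GJB2 showed how far features of 1 transcript lay apart. Its 10 measured features are annotated to 1 transcript. On the 12 arrays the standard deviation among the 10 features was 0.46 to 0.94, while that of all 17134 measured features was 0.48 to 0.99, and the ratio of both ran from 0.68 to 1.45. The features lay on both sides of 0 on every array. The largest standard deviation was on 48 h replicate 1, with features from -1.85 to 1.09, and 72 h replicate 1 ran from -2.28 to 1.05.

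**Figure D2:**
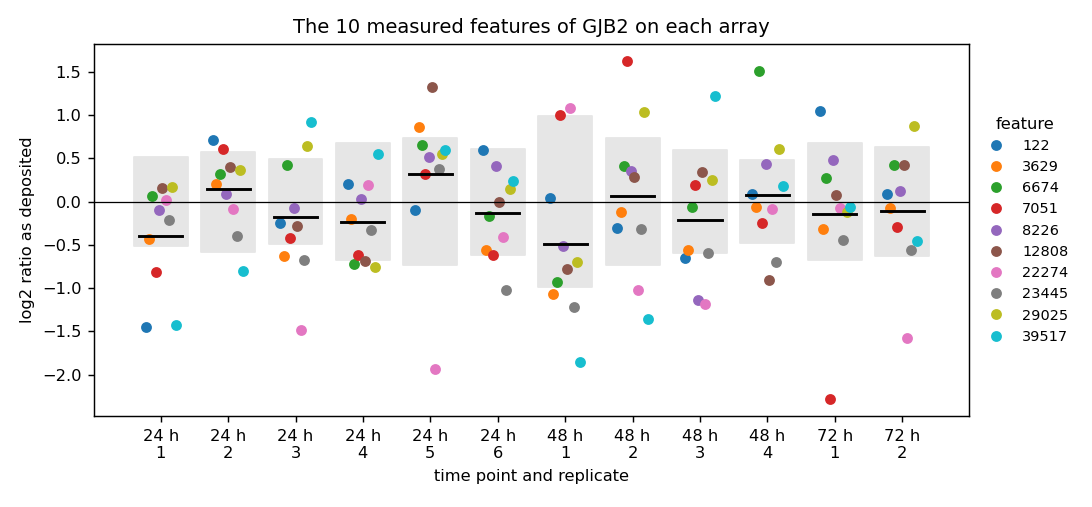
Log2 ratio as deposited (vertical axis) of the 10 measured GJB2 features on each of 12 arrays, 1 colour per feature, with the mean of the 10 as a black bar and 1 standard deviation of all measured features either side of 0 as a grey band. The 10 features of 1 transcript spread about as widely as all features, with standard deviations of 0.46 to 0.94 against 0.48 to 0.99.

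Over the 12 arrays, the 45 pairs of GJB2 features correlated at -0.75 (features 22274 and 29025) to 0.84 (features 3629 and 23445), with a median of 0.13. This is a description over arrays that share a dye orientation in sets of 6. The pattern was not limited to GJB2. Over 167 genes with 8 or more measured features of 1 transcript, 1702 features in all, the intraclass correlation of the log2 ratio was -0.02 to 0.01 on the 12 arrays, where 0 means that features of a gene are no more alike than features of different genes. Among genes with 8 or more features the blank state was mostly shared, and the log2 ratio was not. Blank and measured features still stood together in 74 of 244 such genes, and in 3268 of 7759 genes with 2 or more. Whether this arose in the measurement or in the way values were tied to features was not tested. Each ratio below is the one the value table holds under the feature named, and it may not stand for the gene.

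The sign of the ratios rests on a reading. Which RNA carried which dye is known from the labels, but not which channel was divided by which. Values were read as deposited as LE over control, as the sample titles word the comparison, and the value with arrays of LE in Cy-3 turned in sign is called the turned value and stands beside each mean over the time points given for a single feature. Arrays with LE in Cy-5 mostly hold 9 decimals (89.6 to 90.6% of values) and those with LE in Cy-3 mostly 6, with 9 in 0.0700 to 0.292%. Across all measured features, arrays of like dye orientation correlated at -0.02 to 0.50 (median 0.23, 30 pairs) and arrays of unlike orientation at -0.34 to 0.26 (median -0.03, 36 pairs).

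No member feature passed an FDR of 0.01 at any time point. limma called 0 of 29 member features at 24, 48 and 72 h, against 0.0% of all 17134 measured features at each time, and 0 of 29 when the 3 time points were averaged, against 9 of all features (0.0525%). After turning, the averaged time points gave 0 members and 2 of all features (0.0117%). The study, also with limma, reported genes at an FDR of 0.01 at each time point and lists the member KRT14 as lowered. The fit here did not give those calls, and KRT14 had no value to fit. Why the calls differ was not tested. With robust regression in limma, CDH6 (adjusted p = 0.00499) and feature 23445 of GJB2 (adjusted p = 0.00559) passed for the averaged time points. An unadjusted p under 0.05 was reached by 1 member feature at 24 h (5.78% of all features), by 4 at 48 h (9.29%), by 3 at 72 h (8.99%) and by 5 in the mean (17.2% of members, against 15.9% of all). The median member log2 ratio was 0.04 at 24 h, -0.14 at 48 h and 0.15 at 72 h, against 0.02, 0.00 and 0.04 for all features. Of the 29 features, 18 were above 0 at 24 h, 13 at 48 h and 17 at 72 h as deposited, and 18, 17 and 12 when turned, so that the balance at 48 and 72 h depended on the reading. As deposited, in 13 of 29 (44.8%) the 3 time points had 1 sign, 8 above and 5 below 0, against 40.8% of all features. As deposited no member kept 1 sign on 12 arrays, as 71 of all features did (0.414%), and turned 1 member did, PKP2 feature 8694, with 343 of all features (2.0%). The differences between time points gave 0 calls among members and 0.0% of all features, with 1 member at an unadjusted p under 0.05 for 48 h minus 24 h (4.82% of all features), 1 for 72 h minus 24 h (3.9%) and 4 for 72 h minus 48 h (3.9%).

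**Figure D3:**
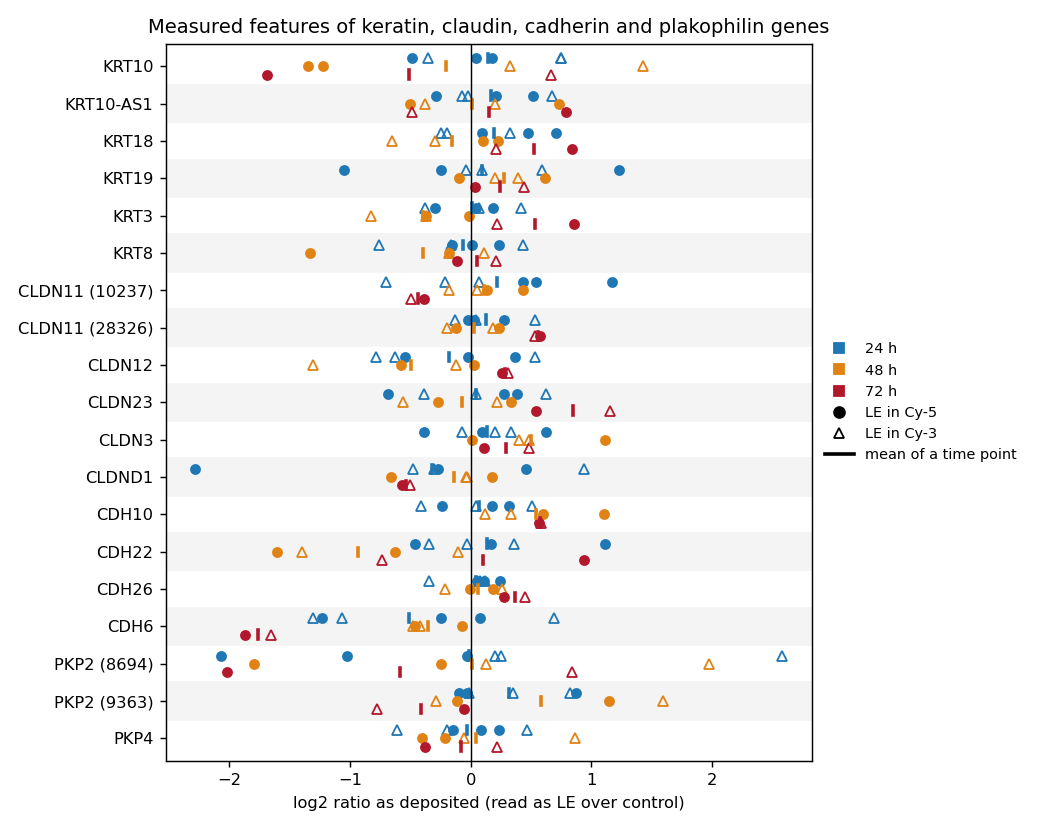
Log2 ratio as deposited (horizontal axis) of the 19 measured features of keratin, claudin, cadherin and plakophilin genes. Each point is 1 array, coloured by time point, filled circles for LE in Cy-5 and open triangles for LE in Cy-3, and short bars are means of a time point. CDH6 lies below 0 on 10 of 12 arrays, and the points of PKP2 feature 8694 fall on opposite sides of 0 by dye.

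Among keratins, KRT18, a type I keratin of simple epithelia, had the smallest p in the mean over the time points as deposited, and KRT10 had it turned. Its log2 ratio at 24 h ran from -0.25 over a median of 0.21 to 0.71. At 48 h the 4 arrays had -0.65, 0.10, 0.22 and -0.30, and the 72 h arrays had 0.21 and 0.84. Arrays lay on both sides of 0 at 24 and 48 h, and both 72 h arrays were above it. The mean over the time points was 0.19 (SE 0.14, limma adjusted p = 0.581, turned value 0.29), above 0 on 8 of 12 arrays. Its type II partner KRT8 ran from -0.76 over -0.07 to 0.44 at 24 h, had 0.11, -0.18, -1.33 and -0.18 at 48 h, and 0.21 and -0.11 at 72 h. KRT8 thus had signs of both kinds at each time point, with a mean of -0.14 (SE 0.16, adjusted p = 0.742, turned value -0.14).

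KRT19, the smallest keratin and a duct marker, ran from -1.05 over 0.03 to 1.23 at 24 h. At 48 h it had 0.39, -0.10, 0.61 and 0.20, and at 72 h 0.44 and 0.04. The 24 h arrays covered more than 2 log2 units, and the later ones were mostly above 0. The mean was 0.20 (SE 0.18, adjusted p = 0.645, turned value -0.11), so its sign depended on the reading. KRT3 averaged 0.05 (turned 0.16) and KRT10-AS1 0.11 (turned 0.24), each above 0 on 6 of 12 arrays.

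KRT10, singled out after its values were seen, followed the dye. On the 6 arrays with LE in Cy-5 it averaged -0.76 ± 0.78, and on the 6 with LE in Cy-3 0.59 ± 0.59 (SD, n = 6 each). It was below 0 on 4 of the first set and above 0 on 5 of the second. As deposited the mean was -0.19 (SE 0.27, adjusted p = 0.80), and turned it was -0.83 (SE 0.17, adjusted p = 0.0304), which does not pass an FDR of 0.01. Under 0.05 were 2 turned member features, KRT10 and 1 of PKP2, and 2.56% of all features.

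Among claudins, CLDN3, of tight junction strands, ran from -0.39 over 0.15 to 0.62 at 24 h, and had 0.40, 0.01, 1.12 and 0.48 at 48 h and 0.48 and 0.11 at 72 h. It was above 0 on 10 of 12 arrays, including all of those at 48 and 72 h. The mean was 0.31 (SE 0.14, unadjusted p = 0.0463, adjusted p = 0.303), with a turned value of -0.05. CLDN23 ran from -0.69 over 0.16 to 0.63 at 24 h and had -0.56, -0.27, 0.33 and 0.21 at 48 h. On the 72 h arrays it had 1.15, the highest of the 12 arrays, and 0.54, which was within the 24 h range. At 72 h the mean was 0.85 ± 0.43 (SD, n = 2; unadjusted p = 0.0271, adjusted p = 0.465, turned -0.30), and over the time points 0.27 (adjusted p = 0.430, turned value -0.09).

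The other claudin features were near 0 or wide. CLDN11, measured with 2 features on 1 transcript, had means of -0.04 (feature 10237, turned 0.24) and 0.23 (feature 28326, turned 0.01). At 72 h these features of CLDN11 lay apart, at -0.44 ± 0.08 and 0.56 ± 0.03 (SD, n = 2), with turned values of 0.05 and 0.02. CLDN12 averaged -0.13 (turned 0.10). CLDND1, whose protein is only distantly related to claudins, averaged -0.33 (SE 0.23, adjusted p = 0.532, turned -0.17), with 24 h arrays from -2.28 to 0.94.

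The member mean farthest from 0 as deposited was that of CDH6, and turned that of PKP2 feature 8694. CDH6 is the type II cadherin of kidney epithelium known as K-cadherin. At 24 h it ran from -1.30 over -0.66 to 0.69. At 48 h the arrays had -0.48, -0.07, -0.46 and -0.42, and at 72 h -1.66 and -1.87. It was below 0 on 10 of 12 arrays, all of those at 48 and 72 h among them. The time points averaged -0.51 ± 0.81 (n = 6), -0.36 ± 0.19 (n = 4) and -1.76 ± 0.15 (n = 2, SD), the last a fold of 0.294, with a turned value of -0.11. At 72 h the unadjusted p was 0.000649 and the adjusted p 0.198 in limma.

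In the mean over the time points CDH6 stood at -0.88 (SE 0.19, a fold of 0.544), with an adjusted p of 0.0348, which misses an FDR of 0.01. It was the only one of the 29 member features under 0.05, where 213 of all features were (1.24%). Arrays with LE in Cy-5 averaged -0.64 ± 0.76 and those with LE in Cy-3 -0.70 ± 0.83 (SD, n = 6 each), so that the value was below 0 in both dye sets, and the turned value was accordingly 0.01 (adjusted p = 0.991). Without 72 h replicate 1 or 2 the adjusted p was 0.197 or 0.173. Over the fits without any 1 array it ran from 0.0162 to 0.197, with values of -0.96 to -0.83. The difference between 72 h and 24 h was -1.25 (SE 0.48, unadjusted p = 0.0190), with no call over all features. The 4 other CDH6 features were blank, so that no second feature of the gene was at hand.

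CDH10, a type II cadherin of the nervous system, lay on the other side of 0. It ran from -0.42 over 0.11 to 0.51 at 24 h, and had 0.33, 0.60, 1.11 and 0.12 at 48 h and 0.58 and 0.57 at 72 h. It was above 0 on 10 of 12 arrays and on all 6 at 48 and 72 h. The mean was 0.39 (SE 0.14, unadjusted p = 0.0126, adjusted p = 0.173), with 0.42 ± 0.45 for LE in Cy-5, 0.19 ± 0.36 for LE in Cy-3 (SD, n = 6 each) and a turned value of 0.11. CDH22 had its lowest values at 48 h (-1.39, -1.60, -0.63 and -0.10), with a 48 h mean of -0.93 ± 0.69 (unadjusted p = 0.0104, adjusted p = 0.394, turned -0.18), and -0.73 and 0.94 on the 72 h arrays. Its mean over the time points was -0.23 (turned 0.26). CDH26, known from the gut, averaged 0.15 (adjusted p = 0.578, turned 0.01), above 0 on 9 of 12 arrays.

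Of the 3 plakophilin features, 1 split by dye. PKP2, a desmosomal plaque protein that links cadherins to keratin, had 2 measured features. Feature 8694 ran from -2.07 over 0.09 to 2.58 at 24 h, with 1.97, -1.80, -0.24 and 0.12 at 48 h and 0.84 and -2.02 at 72 h. It was below 0 on all 6 arrays with LE in Cy-5 and above 0 on all 6 with LE in Cy-3, so that the dye sets did not overlap. As deposited the mean was -0.20 (SE 0.41, adjusted p = 0.868), and turned it was -1.16 (SE 0.28, adjusted p = 0.0440).

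Feature 9363 of PKP2 ran from -0.10 over 0.17 to 0.87 at 24 h, with 1.59, 1.14, -0.11 and -0.29 at 48 h and -0.77 and -0.06 at 72 h. It did not repeat the dye split of the other PKP2 feature. Its mean was 0.16 (adjusted p = 0.746, turned 0.07). PKP4 ran from -0.61 over -0.03 to 0.47 at 24 h, with 0.86, -0.40, -0.22 and -0.06 at 48 h and 0.21 and -0.38 at 72 h. PKP4 had both signs at each time point and a mean of -0.02 (adjusted p = 0.965, turned -0.19).

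**Figure D4:**
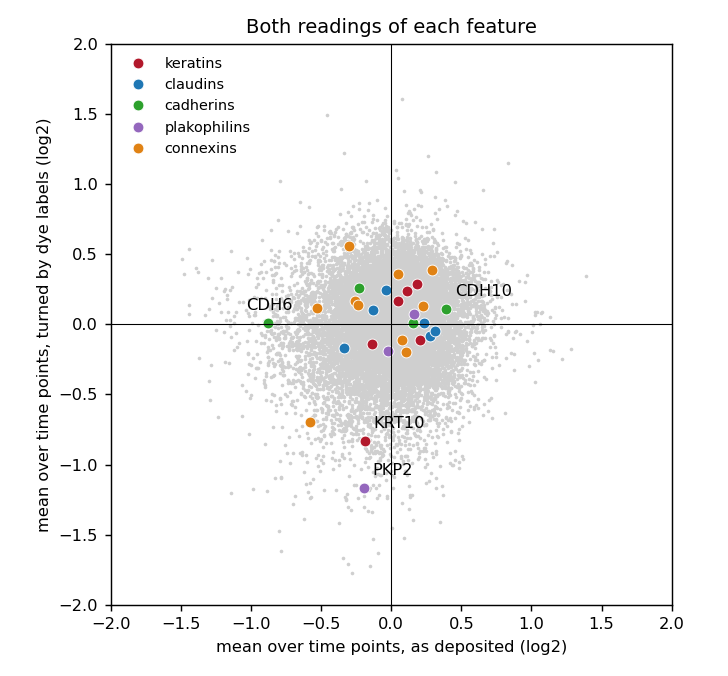
Mean log2 ratio over the time points of each measured feature as deposited (horizontal axis) and with arrays of LE in Cy-3 turned in sign (vertical axis), members in colour by family and all 17134 features in grey. CDH6 lies at -0.88 and 0.01, KRT10 at -0.19 and -0.83, and PKP2 feature 8694 at -0.20 and -1.16.

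For GJB2, the mean of the 10 features was -0.08 ± 0.26 at 24 h (SD, n = 6), -0.14 ± 0.27 at 48 h (n = 4) and -0.12 ± 0.03 at 72 h (n = 2). Over the time points it was -0.12, with a turned value of 0.09. Single features ranged from -0.58 (feature 22274) to 0.29 (feature 29025, turned 0.39), 5 above and 5 below 0. Feature 23445 was below 0 on 11 of 12 arrays, at -0.53 (SE 0.15, unadjusted p = 0.00275, adjusted p = 0.0922, turned 0.11). Feature 22274 was below 0 on 9 of 12, with the largest size and an adjusted p of 0.286 (turned -0.70). Feature 7051 had 0.64 ± 0.84 at 48 h (n = 4) and -1.29 ± 1.41 at 72 h (SD, n = 2), turned 0.27 and 0.996, and a mean over the time points of -0.30 (turned 0.56). Thus the features of 1 gene held low, high and mixed values side by side.

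Partners of the members were also not called. Of 15 measured junction partner genes, 0 passed an FDR of 0.01 for the averaged time points, against 7 of all 8828 genes. Their median was -0.15 as deposited, against 0.02 for all genes, with 5 above 0, and 0.04 turned, with 9 above 0. As deposited 4 had an unadjusted p under 0.05 (26.7%, against 15.7% of all genes). The smallest p among them belonged to NECTIN3, an adhesion protein of adherens junctions, at -0.34 (SE 0.12, adjusted p = 0.164, below 0 on 11 of 12 arrays, turned -0.19), followed by PATJ, a scaffold of tight junctions, at -0.29 (adjusted p = 0.289, turned -0.02). Of the 8 other intermediate filament genes none was called and none had an unadjusted p under 0.05, with a median of 0.02 (turned 0.20). VIM (vimentin) was at 0.19 (adjusted p = 0.504, turned 0.20, above 0 on 9 of 12 arrays) and LMNB2, a nuclear lamin, at -0.27 (adjusted p = 0.507, turned 0.25).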

How the data were processed

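RNA of LE-treated and control MIA PaCa-2 cells was compared on 12 two-colour Agilent whole human genome arrays. As the methods state, the authors scanned with GenePix Pro, applied quality criteria in Acuity and made the deposited log2 ratios with limma (version not given in the sources used here), by lowess within and quantile normalization between arrays. Features were named through GEO's platform annotation, which can be old, and only where it gives 1 symbol. All 17134 measured features were fitted with limma 3.58.1 (R 4.3.3, statmod 1.5.0), 1 term per time point, lmFit and eBayes (9 residual and 6.2 prior degrees of freedom), with Benjamini-Hochberg adjustment over all of them and an FDR of 0.01. The fit was also run on simulated data. There, residuals were shuffled over arrays with random signs, so the likeness of arrays by dye orientation was not kept. Plots were drawn with matplotlib 3.10.9 from tables made with Python 3.11.15, using pandas 2.3.3, scipy 1.17.1 and numpy 2.4.6. Values on every array were given for the 2 genes per family with the smallest unadjusted p of the mean, for KRT7, KRT8, KRT18, KRT19 and CDH1 to CDH3 where measured, and for members past the threshold. From each list up to 2 genes with the smallest p were named, with VIM and KRT10 added after their values were seen. Members and lists were chosen with earlier results of these data known.

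Alternatives were turned ratios, a dye term, a replicate block, both together, arrays centred, scaled or quantile-normalized, robust variance or regression, array weights, gene means, shares over genes or annotated transcripts, an FDR of 0.05 and each array left out.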

Additional observations from a re-analysis of the deposited data

Results flagged for a closer look

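Of 58 groups of 4 or 6 arrays, each 1 member feature at 24 or 48 h, 3 held an array that stood far from the rest (5.17%), where chance gives about 1 in 20. CDH26 had -0.35 on 24 h replicate 1, while its other 24 h arrays had 0.05 to 0.24. CDH6 had -0.0703 on 48 h replicate 2, the array nearest to 0, while the other 48 h arrays had -0.48 to -0.42. GJB2 feature 29025 had -0.76 on 24 h replicate 4, while its other 24 h arrays had 0.15 to 0.64. The 3 values lay on different arrays.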

How the results depend on the processing

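The count of 0 member features past an FDR of 0.01 held at each time point and for each difference between time points under every alternative run. In the mean over the time points it was 2 with robust regression (CDH6, adjusted p = 0.00499, and GJB2 feature 23445, adjusted p = 0.00559) and 1 at an FDR of 0.05 (CDH6). With the replicate number as a random block (correlation 0.187) it was 0. By the labels, same-numbered arrays share only a number and a dye orientation. Their deviations from the time-point means correlated at 0.0584 to 0.489. Those of arrays with like dye orientation and different numbers correlated at 0.018 to 0.479, and those with unlike orientation at -0.508 to 0.0259. Turning the ratios by the dye labels gave a member median of 0.0633 at 48 h and -0.0332 at 72 h, and changed the sign of 13 of 29 means, to -0.19, 0.17, 0.56, -0.11, 0.11 and 0.14 for GJB2 features 122, 3629, 7051, 8226, 23445 and 39517, 0.24 for CLDN11 feature 10237, 0.10 for CLDN12, -0.11 for KRT19, 0.00903 for CDH6, 0.26 for CDH22, -0.0484 for CLDN3 and -0.0855 for CLDN23. Array weights put CLDN11 feature 10237 at 0.00826. The cause was not tested. Counted by gene or by annotated transcript, 9.09% of connexins had values. Without 1 array, 10 of 29 means changed sign, with ranges of -0.51 to 0.0456 for CDH22, -0.10 to 0.0220 for CLDN11 feature 10237, -0.0544 to 0.27, -0.0334 to 0.12 and -0.63 to 0.0300 for GJB2 features 122, 12808 and 7051, -0.58 to 0.20 for KRT10, -0.10 to 0.32 for KRT10-AS1, -0.0579 to 0.16 for KRT3, -0.67 to 0.28 for PKP2 feature 8694 and -0.12 to 0.0775 for PKP4. The member medians then ran from -0.03 to 0.12 at 24 h, -0.17 to -0.00452 at 48 h and 0.08 to 0.21 at 72 h. Signal over background was not used here, so the brightness behind a ratio is unknown.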
